A study of Homo sapiens with 6 samples.

Results

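The mitotic machinery of a neuroendocrine prostate cancer cell line was followed in RNA-seq of cells given pyrvinium pamoate (PP) and of PBS controls. The genes described are 60 symbols that encode mitotic cyclins and kinases, spindle checkpoint proteins, centromere and kinetochore proteins, mitotic kinesins, and factors of spindle assembly, cytokinesis and chromosome condensation. All 60 were found among the 17177 genes of the table, and all 60 were among the 11726 genes whose mean FPKM over the 6 libraries was at least 1, the filter used for the test. FPKM is the number of fragments per kilobase of gene, scaled to a fixed total of mapped fragments in each library.

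NCI-H660 is an established human line from a neuroendocrine prostate cancer, and PP is an anthelmintic drug that the study used against the RNA-binding protein ELAVL3. Cells labelled wild type received PBS or PP and were collected on day 3, with 3 libraries for each treatment, so all libraries come from a single line and the labels give no other difference between the groups. The PP dose behind these libraries is not given in the sources used here. Library totals recovered from the table ran from 29064253 to 32481171 counts, and each of the 60 genes had between 490 and 32460 counts in every library. Libraries of the same treatment differed by a chi-square per degree of freedom of 3.36 to 6.91, and libraries of different treatments by 143.9 to 164.1, more than sampling noise in every case, and each library was counted as a sample of its own. The figure legends of the study call the 3 samples of a treatment independent, but neither they nor the labels say that these were separate cultures, so p-values measure the spread between these libraries, which may be technical.

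The labelled cell type was checked against its markers. The summed FPKM of 10 neuroendocrine markers ran from 206.3 to 218.3 with PBS and from 168.6 to 184.2 with PP. *CHGA*, which encodes the secretory granule protein chromogranin A, was at 42.4 to 44.1 with PBS and 23.5 to 25.5 with PP, and *INSM1*, a neuroendocrine transcription factor, was at 15.4 to 17.2 with PBS and 18.2 to 20.5 with PP. Of the same list, *NEUROD1*, *FOXA2*, *MYCN* and *ELAVL3* had a mean FPKM under 1. The 3 luminal markers analysed summed to between 0.399 and 1.40, 9 fibroblast and endothelial markers to between 7.50 and 9.18, and 6 leukocyte markers to between 2.17 and 3.42. The neuroendocrine sum thus moved with the treatment together with the mitotic genes, and its part in their change was not tested.

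Entry into mitosis is driven by CDK1 bound to cyclin B, which CDC25 phosphatases switch on, and by the Polo-like and Aurora kinases. Kinetochores then join chromosomes to spindle microtubules, the spindle assembly checkpoint holds back the anaphase-promoting complex until every chromosome is attached, and CDC20 activates that complex so that securin and cyclin B are destroyed and separase cuts cohesin. The messenger RNAs of these proteins accumulate from late S phase to mitosis, and their promoters are known for short elements, the cell cycle genes homology region (CHR), bound by the MuvB core of the DREAM and MYB-MuvB complexes, and the CCAAT box, bound by NF-Y. In proliferating tumours the level of these messenger RNAs largely follows the share of cycling cells, and in RNA from bulk cells a lower share of cells in mitosis cannot be told apart from less of a messenger RNA in each cell.

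Promoter letters are shown for 7 genes whose responses span the whole range found, to let the elements that most of these promoters hold be compared between them. Each line gives the 100 bases directly before the transcription start, 5′ to 3′ on the strand of the gene, from the RefSeq promoter table (GRCh38.p14). Capitals mark a CHR (TTTGAA or TTCGAA), the related run TTTAAA, or a CCAAT box, each on either strand, so that TTCAAA and ATTGG are marked as well, and neighbouring capitals can hold overlapping elements. *KIF20A* (chr5:138179012-138179111, plus strand) and *ESPL1* (chr12:53268199-53268298, plus strand) had the lowest log2 fold changes of the 60, *CCNB1* (chr5:69167050-69167149, plus strand), *PLK1* (chr16:23678789-23678888, plus strand) and *CDC20* (chr1:43358881-43358980, plus strand) are the best known regulators, *CDK1* (chr10:60778378-60778477, plus strand) is a kinase whose level did not pass the test, and *CENPK* (chr5:65563169-65563268, minus strand) is the gene that rose.
KIF20A: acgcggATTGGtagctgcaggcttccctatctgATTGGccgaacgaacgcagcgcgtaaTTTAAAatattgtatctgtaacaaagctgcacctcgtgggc
ESPL1: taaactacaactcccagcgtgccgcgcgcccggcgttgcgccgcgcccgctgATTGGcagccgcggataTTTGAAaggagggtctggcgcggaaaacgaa
CCNB1: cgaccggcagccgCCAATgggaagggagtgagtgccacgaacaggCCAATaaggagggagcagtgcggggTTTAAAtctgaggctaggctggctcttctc
PLK1: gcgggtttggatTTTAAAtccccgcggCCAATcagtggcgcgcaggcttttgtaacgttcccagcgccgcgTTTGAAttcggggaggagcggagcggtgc
CDC20: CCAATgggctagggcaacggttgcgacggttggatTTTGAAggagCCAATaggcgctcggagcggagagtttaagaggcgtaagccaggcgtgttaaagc
CDK1: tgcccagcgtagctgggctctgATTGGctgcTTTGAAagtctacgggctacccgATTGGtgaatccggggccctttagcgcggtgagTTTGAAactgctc
CENPK: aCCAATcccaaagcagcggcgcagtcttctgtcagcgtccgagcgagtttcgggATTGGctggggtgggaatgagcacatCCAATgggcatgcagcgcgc
The *ESPL1* stretch has a CCAAT box beginning 48 bases and a CHR beginning 31 bases before the start, while *KIF20A* has TTTAAA beginning 41 bases before it and no CHR. The *CDK1* stretch holds both elements repeatedly, and the *CENPK* stretch holds CCAAT boxes without a CHR.

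PP lowered most of the mitotic genes, moderately and together. With PP, 51 of the 60 fell at an adjusted p under 0.05 (85.0%, against 34.4% of all genes tested), 1 rose (1.67%, against 38.1%), and 8 did not pass the test. These counts come from limma on log2(FPKM + 1), with p-values adjusted by Benjamini and Hochberg's method over all genes tested, and every log2 fold change below is on that scale, negative where PP was lower. The median log2 fold change of the 60 was -0.32, with quartiles at -0.53 and -0.20, beside 0.02 for all genes tested. In linear terms the median change of mean FPKM was -21.5%, and the largest fall was -52.3%. Summed over the 60 genes, FPKM was 3292, 3205 and 3187 in PBS replicates 1, 2 and 3 and 2433, 2485 and 2514 in PP replicates 1, 2 and 3, so the groups did not overlap and the mean of the sum was 23.3% lower with PP.

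In 50 of the 60 genes every PP library lay below every PBS library (background 35.5%), in 1 gene every PP library lay above (background 39.5%), and in 9 the groups overlapped (background 25%). Few of the falls were large. Only *KIF20A* fell past the cutoff that the methods of the study give for limma, an unadjusted P under 0.001 and a log2 fold change beyond 1 or -1 (background 2.93%). None of the 60 rose past it by limma (background 2.24%), while 52 of the 60 had an unadjusted p under 0.05 in either direction (background 74.3%) and the count of rises past the cutoff was also 0 with limma-voom on recovered counts. A log2 fold change below -0.5 was found for 20 of the 60 and for 12.5% of all genes tested.

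**Figure D1:**
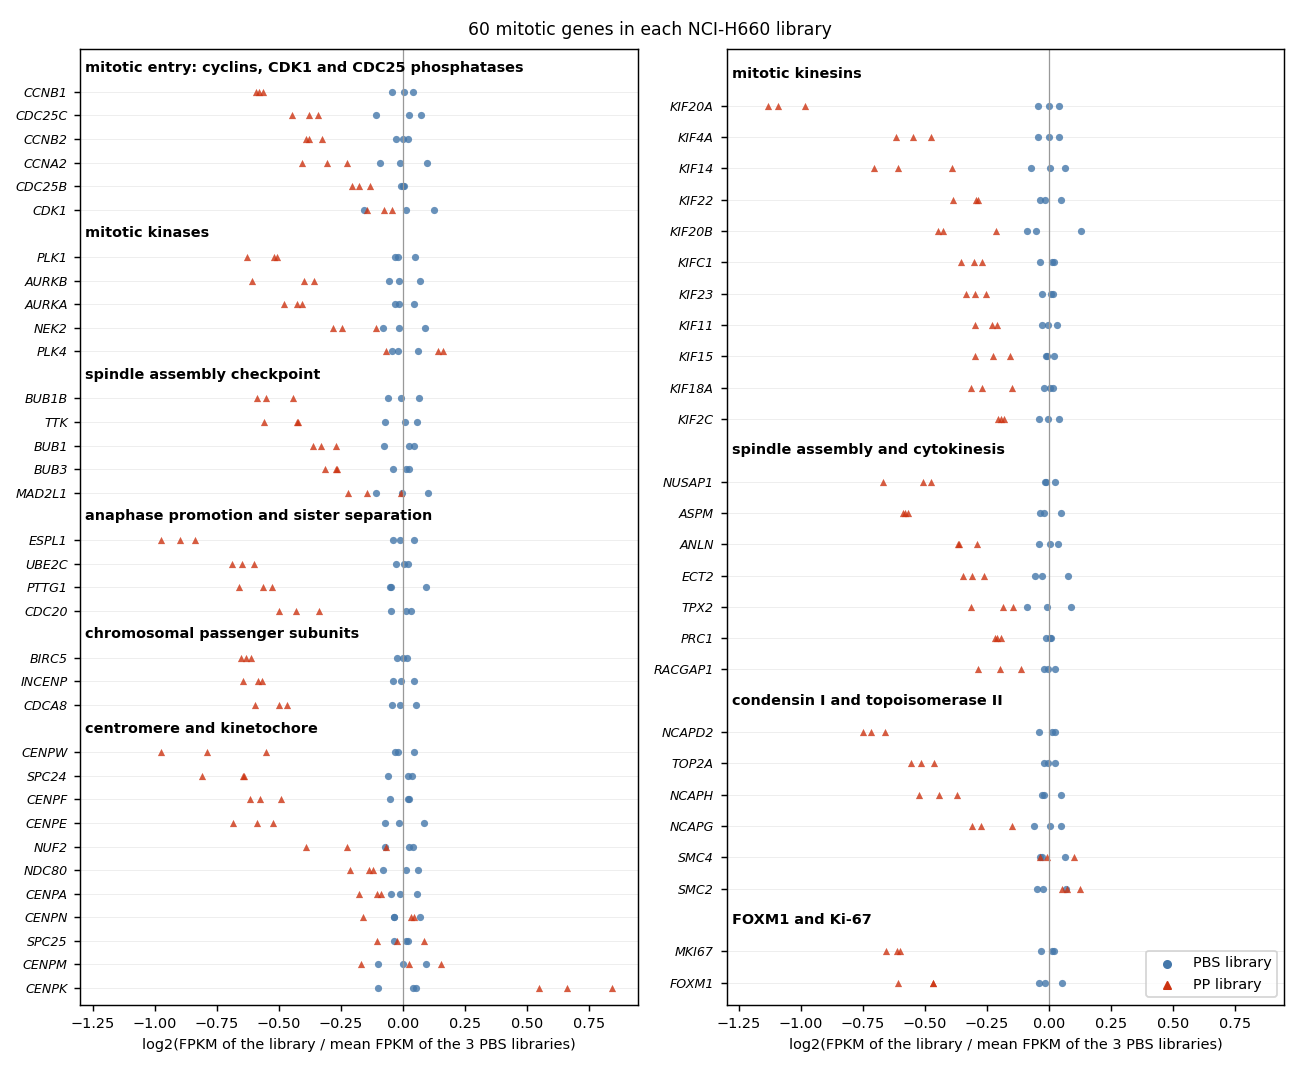
Each row is a gene and each symbol a library, placed by the log2 ratio of its FPKM to the mean FPKM of the 3 PBS libraries (blue circles PBS, red triangles PP), with genes grouped by role. PP libraries lie to the left of PBS libraries in 50 of the 60 rows, farthest for *KIF20A*, and to the right for *CENPK*.

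These genes were abundant in PBS-treated cells. Their mean FPKM with PBS ran from 6.01 (*CENPK*) to 226 (*PTTG1*), with a median of 37.4 against 10.8 for all genes tested, and 53 of the 60 stood above the median of all genes. Replicates were close, with a median coefficient of variation of 3.09% with PBS and 4.75% with PP. The standard error of the log2 fold change ran from 0.03 to 0.08. Across the 60 genes, Spearman's correlation of the log2 fold change with the mean FPKM with PBS was -0.25, a description only, since the genes share the same libraries.

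**Figure D2:**
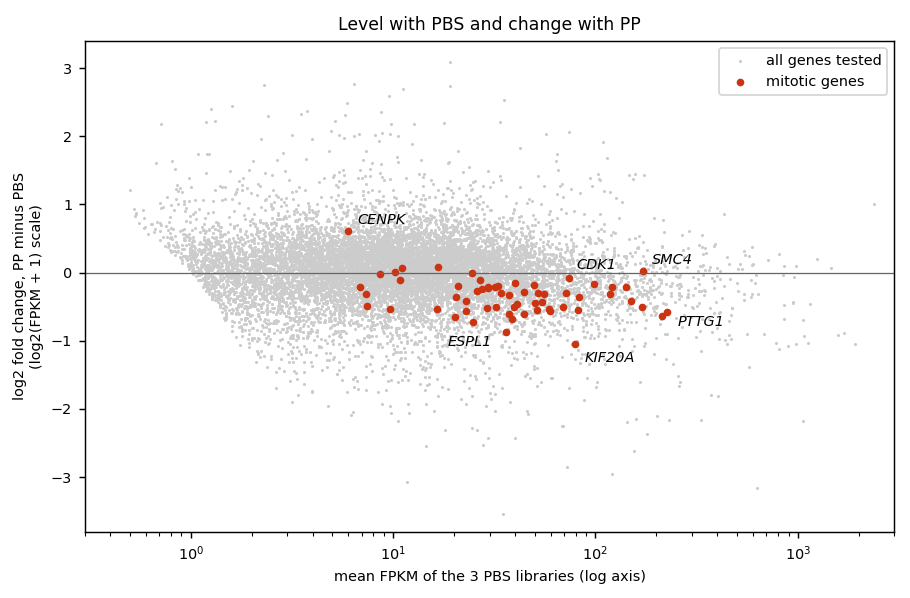
Mean FPKM of the 3 PBS libraries (log axis) against the log2 fold change between PP and PBS, with all 11726 genes tested in grey and the 60 mitotic genes in red. The mitotic genes sit among the more abundant genes and mostly between 0 and -1, with *KIF20A* lowest and *CENPK* highest.

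Among the listed genes that drive entry into mitosis, the cyclins, *CDC25B* and *CDC25C* fell, and the level of their kinase did not pass the test. The related phosphatase gene *CDC25A*, kept in another list, rose by 0.16 on the log2 scale (adjusted p = 0.0231 from limma). *CCNB1*, which encodes cyclin B1, had an FPKM of 60.0, 61.6 and 58.0 in PBS replicates 1, 2 and 3 and of 40.5, 40.0 and 39.7 in PP replicates 1, 2 and 3. All PP libraries were below all PBS libraries, and the log2 fold change was -0.57 ± 0.04 (SE, adjusted p = 2.76e-07 from limma). *CDK1* itself stood at 80.5, 74.6 and 66.3 with PBS and at 70.0, 66.8 and 71.6 with PP. The groups overlapped, the lowest value being a PBS library, and its log2 fold change was -0.08 ± 0.06 (adjusted p = 0.258), which became -0.16 with an adjusted p of 0.0183 without PBS replicate 3. Of the others, *CCNB2* fell by 0.36, *CCNA2*, the cyclin of S and G2 phase, by 0.30, *CDC25C* by 0.37 and *CDC25B* by 0.17 on the log2 scale.

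Of the 5 mitotic kinases, 4 fell. *PLK1*, the Polo-like kinase that acts from centrosome maturation to cytokinesis, had an FPKM of 60.8, 57.4 and 57.8 with PBS and of 38.0, 41.0 and 41.3 with PP (log2 fold change -0.54 ± 0.04, adjusted p = 1.50e-06 from limma). *AURKA*, which builds spindle poles, was at 56.2, 53.8 and 53.3 with PBS and at 40.4, 39.0 and 41.1 with PP (-0.43 ± 0.04, adjusted p = 3.29e-06). In *PLK1* and *AURKA* alike, no PP library reached the lowest PBS library. *AURKB*, the catalytic subunit of the chromosomal passenger complex, was at 49.8, 52.9 and 48.5 with PBS and at 39.3, 38.2 and 33.1 with PP (-0.44 ± 0.06, adjusted p = 9.64e-05), with its lowest value in PP replicate 3. *NEK2*, a centrosomal kinase, fell by 0.20. *PLK4*, the kinase that starts centriole duplication, differed from them with 11.5, 10.7 and 10.9 with PBS and 10.5, 12.2 and 12.3 with PP. Its PP libraries lay on both sides of the PBS libraries, and its log2 fold change was 0.07 ± 0.06 (adjusted p = 0.316), or 0.14 with an adjusted p of 0.0393 when PP replicate 1 was left out.

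In the spindle assembly checkpoint list, 4 of 5 genes fell, and further checkpoint genes such as *ZW10* are in other lists below. *BUB1B*, which encodes the checkpoint protein BUBR1, was at 33.9, 31.1 and 32.3 FPKM with PBS and at 21.6, 22.1 and 23.9 with PP, without overlap (log2 fold change -0.51 ± 0.05, adjusted p = 6.85e-06 from limma). *TTK*, the kinase MPS1 that starts checkpoint signalling, fell by 0.46, *BUB1* by 0.31 and *BUB3*, the adaptor that carries both BUB proteins to kinetochores, by 0.27. *MAD2L1*, which encodes MAD2, the inhibitor of CDC20, was at 11.6, 10.1 and 10.8 with PBS and 9.82, 9.30 and 10.8 with PP. Its groups overlapped and its change did not pass the test (-0.11 ± 0.07, adjusted p = 0.156), though it did without PP replicate 3 (-0.16, adjusted p = 0.0498) and with upper-quartile scaling (-0.17, adjusted p = 0.0444).

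The 4 listed genes of anaphase promotion and sister separation all fell, with a median log2 fold change of -0.61. Subunits of the anaphase-promoting complex itself are in another list below and changed in both directions. *ESPL1*, which encodes separase, the protease that cuts cohesin, was at 35.0, 37.2 and 35.8 FPKM with PBS and at 20.1, 19.3 and 18.3 with PP (-0.87 ± 0.05, adjusted p = 6.93e-08 from limma). *CDC20*, the activator of the anaphase-promoting complex, was at 145.5, 154.2 and 151.8 with PBS and at 119.0, 111.7 and 106.4 with PP (-0.42 ± 0.04, adjusted p = 1.13e-05). Neither gene had a PP library near its PBS libraries. *UBE2C*, the ubiquitin-conjugating enzyme of the complex, fell by 0.64, and *PTTG1*, which encodes securin, the inhibitor of separase and the most abundant of the 60, fell by 0.58. The 3 subunits of the chromosomal passenger complex listed beside the kinase fell as well. *BIRC5*, which encodes survivin, was at 36.95, 37.98 and 37.58 with PBS and at 24.2, 23.8 and 24.5 with PP (-0.61 ± 0.04, adjusted p = 1.64e-07). *CDCA8*, which encodes borealin, was at 71.9, 67.2 and 68.7 with PBS and at 45.8, 49.0 and 50.1 with PP (-0.51 ± 0.04, adjusted p = 2.41e-06). The scaffold gene *INCENP* fell by 0.57.

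Centromere and kinetochore genes were the least uniform. Of 11, 7 fell, 1 rose and 3 did not pass the test, and the median was -0.15. *CENPW*, a histone-fold protein of the inner kinetochore, was at 24.4, 24.6 and 25.8 FPKM with PBS and at 17.0, 14.4 and 12.7 with PP, from 511 to 988 counts (-0.73 ± 0.08, adjusted p = 2.10e-05 from limma). Its standard error was the largest of the 60, and PP replicate 3 was lowest. *CENPK*, a subunit of the constitutive centromere network, was at 6.18, 6.24 and 5.61 with PBS and at 9.50, 8.81 and 10.8 with PP, from 920 to 1856 counts. Every PP library was above every PBS library, the mean was 61.4% higher, and the log2 fold change was 0.61 ± 0.07 (adjusted p = 2.92e-05). Leaving out any of the 6 libraries kept it between 0.54 and 0.67.

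The genes of the proteins that form a complex with CENP-K were singled out after their values were seen, and they did not rise together. *CENPH* was at 0.19 (adjusted p = 0.0215 from limma), *CENPM* at 0.01 (adjusted p = 0.952) and *CENPI* at -0.57 (adjusted p = 2.60e-05) on the log2 scale. Partners of CENP-W, singled out in the same way, fell by 0.68 (*CENPX*) and by 0.18 (*CENPT*). The outer kinetochore motor and scaffold genes *CENPE* and *CENPF* fell by 0.53 and 0.55. In the microtubule-binding NDC80 complex, *SPC24* fell by 0.66, *NUF2* by 0.22 and *NDC80* by 0.15, while *SPC25* was at -0.01 and did not pass the test. *CENPN* was at -0.02. *CENPA*, the centromeric histone, fell by 0.12 with an adjusted p of 0.0332.

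The calls of *CENPA*, *NUF2* and *NDC80* were the weakest. *CENPA* no longer passed the test without PBS replicate 1, PBS replicate 3 or PP replicate 2 (adjusted p of 0.118, 0.0658 and 0.123 from limma). Leaving out PBS replicate 1 also ended the calls of *NUF2* (0.0510) and *NDC80* (0.0503). *NUF2* was the gene called lower whose groups overlapped, with PP replicate 3 at 30.5 FPKM beside 30.4 in PBS replicate 3.

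All 11 mitotic kinesins fell, by 0.19 to 1.05 on the log2 scale. *KIF20A*, a kinesin of the central spindle that is needed for cytokinesis, was at 81.6, 79.5 and 77.1 FPKM with PBS and at 36.2, 40.2 and 37.3 with PP. Every PP library lay far below every PBS library, and the log2 fold change of -1.05 ± 0.04 (adjusted p = 1.49e-08 from limma) ran from -1.09 to -1.02 over the fits that each omitted a library. *KIF2C*, the microtubule depolymerase that corrects faulty attachments, changed least of them, from 49.9, 51.4 and 48.7 with PBS to 43.4, 44.1 and 43.7 with PP (-0.19 ± 0.04, adjusted p = 7.58e-04). Its groups still did not overlap. The chromokinesin *KIF4A* fell by 0.52 and *KIF14* by 0.49. The spindle motor *KIF11*, known as Eg5, fell by 0.24, its relative in spindle bipolarity *KIF15* by 0.22, the chromokinesin *KIF22* by 0.32, the centralspindlin motor *KIF23* by 0.29, the minus-end motor *KIFC1* by 0.30, *KIF20B* by 0.31 and *KIF18A* by 0.21.

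All 7 genes of spindle assembly and cytokinesis fell too. *NUSAP1*, a microtubule-bundling protein, was at 83.6, 81.5 and 81.2 FPKM with PBS and at 51.7, 59.0 and 57.8 with PP (-0.54 ± 0.05, adjusted p = 3.59e-06 from limma). *RACGAP1*, the GTPase-activating partner of KIF23 in centralspindlin, was at 33.6, 32.9 and 32.5 with PBS and at 27.1, 30.5 and 28.8 with PP (-0.19 ± 0.05, adjusted p = 0.00366). The PP libraries of both genes lay below all PBS libraries, with the lowest value in PP replicate 1. *ASPM*, which acts at spindle poles, fell by 0.54, the furrow scaffold *ANLN* by 0.33, the RhoA exchange factor *ECT2* by 0.30, *TPX2*, the activator of Aurora A, by 0.21 and the microtubule bundler *PRC1* by 0.21.

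Among the condensin I subunits and topoisomerase II, the core ATPases stood apart. *SMC2* was at 17.5, 16.2 and 16.4 FPKM with PBS and at 17.4, 17.6 and 18.2 with PP, overlapping between treatments (0.08 ± 0.05, adjusted p = 0.136 from limma), and *SMC4* was at 0.02 with an adjusted p of 0.684. *NCAPD2*, a regulatory subunit, was at 37.7, 39.0 and 39.4 with PBS and at 24.5, 23.5 and 23.0 with PP (-0.69 ± 0.04, adjusted p = 1.53e-07), and every PP library was far below every PBS library. *NCAPH*, the kleisin subunit, fell by 0.42 and *NCAPG* by 0.23. *TOP2A*, the topoisomerase that untangles sister chromatids, was at 172.7, 167.6 and 169.2 with PBS and at 118.7, 115.6 and 123.1 with PP (-0.51 ± 0.03, adjusted p = 3.90e-07).

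The transcription factor gene *FOXM1*, whose product activates many of these genes in G2 phase, was at 41.2, 39.4 and 38.7 FPKM with PBS and at 26.1, 28.8 and 28.8 with PP (-0.50 ± 0.05, adjusted p = 5.88e-06 from limma). *MKI67*, which encodes the proliferation marker Ki-67, was at 43.6, 45.2 and 45.0 with PBS and at 28.3, 29.1 and 29.4 with PP (-0.61 ± 0.04, adjusted p = 1.88e-07). Neither gene's groups overlapped.

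Genes that share exons with another coding gene are less certain. More than 10% of exonic bases were shared in 5 of the 60: *NUSAP1* (81.4%) and *PRC1* (57.6%) with a gene of the same strand, and *NCAPG* (33.7%), *SMC4* (19.0%) and *FOXM1* (15.9%) with a gene of the opposite strand. The labels name a kit that marks strand, and whether counting used strand is not given in the sources used here.

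Because some products of these genes bind each other or work in the same complex, ratios between partners were compared within each library. The 10 pairs were picked after the values were seen. The log2 ratio of *CCNB1* to *CDK1* was -0.30 ± 0.12 in the PBS libraries and -0.79 ± 0.06 in the PP libraries (mean ± SD, n = 3 each). That of *SPC24* to *SPC25* went from -0.27 ± 0.02 to -0.95 ± 0.19, and that of *NCAPD2* to *SMC4* from -2.15 ± 0.09 to -2.88 ± 0.11. Separase fell further than its inhibitor, so the log2 ratio of *PTTG1* to *ESPL1* went from 2.65 ± 0.12 to 2.97 ± 0.14. By contrast *NUF2* to *NDC80* (-0.32 ± 0.02 and -0.39 ± 0.13) and *BIRC5* to *AURKB* (-0.42 ± 0.05 and -0.60 ± 0.15) overlapped between treatments. In 8 of the 10 pairs the groups did not overlap. Among all single genes tested, every PP library lay below every PBS library in 35.5% and above in 39.5%. No such share was computed for other pairs. Each of the 8 had a p of 0.1 in a two-sided exact permutation test, the smallest that 3 against 3 libraries allow. After Benjamini-Hochberg adjustment over the 10 pairs it was 0.125. As the pairs were picked after the values were seen, these p-values are a description only.

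**Figure D3:**
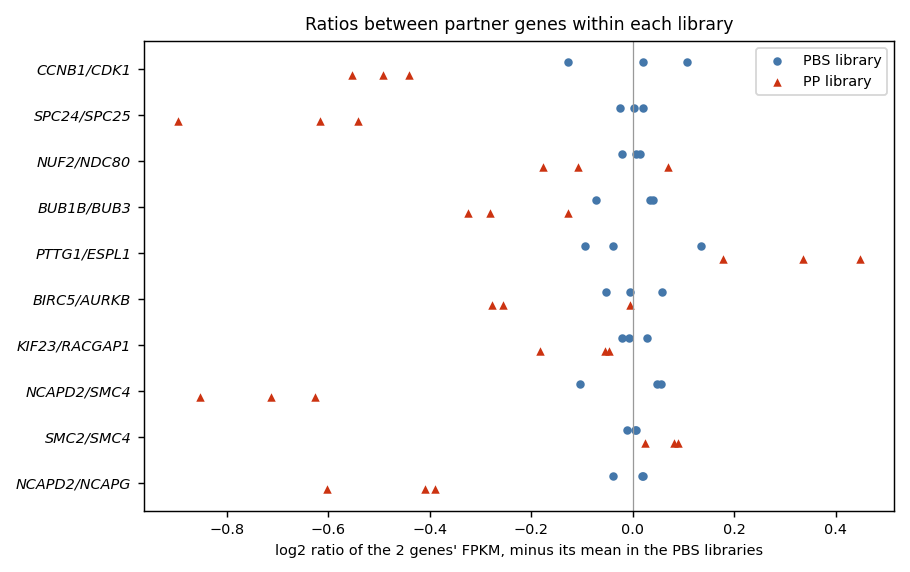
For each of 10 pairs of partner genes, the log2 ratio of their FPKM in a library minus its mean over the PBS libraries (blue circles PBS, red triangles PP). *SPC24/SPC25* and *NCAPD2/SMC4* moved farthest to the left, *PTTG1/ESPL1* to the right, and *NUF2/NDC80* and *BIRC5/AURKB* overlap.

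The promoters found for these genes often held the CHR and CCAAT elements for which genes of this kind are already known. The shares below are therefore a description only. RefSeq windows of 300 bases, 250 before to 50 after a start, were found for 51 of the 60 (66 windows). *AURKA*, *BIRC5*, *BUB3*, *CENPM*, *FOXM1*, *RACGAP1*, *TPX2*, *TTK* and *UBE2C* have no entry. A CHR, searched as TTTGAA or TTCGAA on both strands, was in 66.7% of their windows, in 11.4% of the windows of all genes tested and in 16.4% of all windows of the table. CCAAT was in 69.7% of the mitotic windows, 35.1% of the windows of all genes tested and 34.6% of all windows. Both elements together were in 50%, 4.72% and 6.38%. An E2F motif was searched as TTTCCCGC, TTTCGCGC, TTTGCCGC or TTTGGCGC. It was in 7.58% of the mitotic windows, 5.03% of the windows of all genes tested and 3.31% of all windows. By gene, it was in 7.84% of the mitotic genes with a window and 6.84% of the tested genes with a window. A list of 41 genes of DNA replication, of which 36 have an entry (47 windows), held E2F letters in 40.4% and a CHR in 4.26% of its windows.

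Genes fell with and without a CHR among the 51 with a window. Of 40 genes with one, 33 fell, with a median log2 fold change of -0.31. Of 11 without, 10 fell and *CENPK* rose, with a median of -0.44. Of these 11, *CCNB1*, *CENPE*, *KIF20A*, *KIF2C*, *NCAPH* and *PTTG1* hold TTTAAA, the run related to the CHR, in a window. The group without a CHR is therefore not a group without related letters. TTTAAA, searched after the sequences were seen, was in 25.8% of the mitotic windows, 7.94% of tested genes' windows and 12.2% of all windows. Of the 16 genes with it 15 fell, with a median of -0.51 for the 16, against -0.30 in the 35 without. As the printed stretches show, *ESPL1* and *CDK1* both hold CCAAT boxes and a CHR before the start, and their log2 fold changes were -0.87 and -0.08. These matches are of letters only, the medians were not tested against each other, and no binding was measured.

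**Figure D4:**
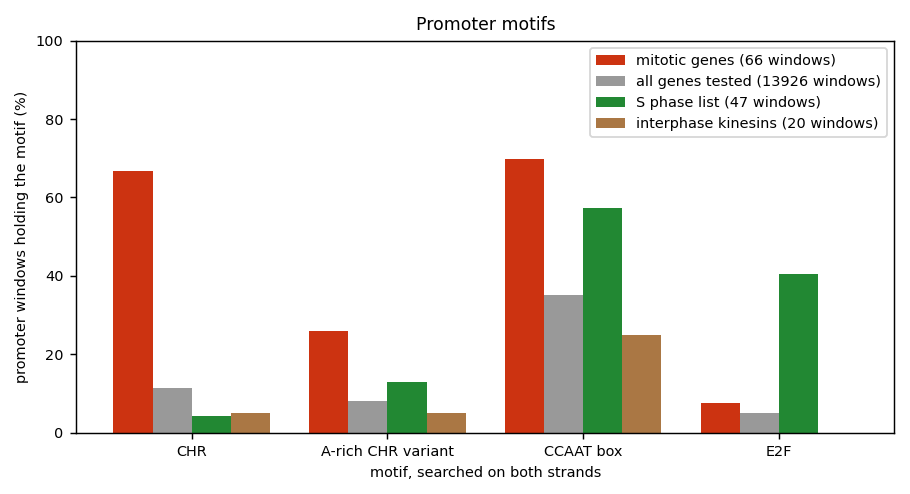
Share of RefSeq promoter windows that hold each motif on either strand, for the mitotic genes, all genes tested, the list of DNA replication genes and the list of interphase kinesins (bars start at 0). The CHR bar is at 66.7% for the mitotic genes and 4.26% for the replication genes, and E2F is the reverse at 7.58% and 40.4%.

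Other lists of the mitotic apparatus are read against the 34.4% of all genes tested that were lower and the 38.1% that were higher. In a list of 22 further spindle, chromosome and cytokinesis genes, 17 fell and 2 rose, with a median of -0.51 and *CDCA3*, a trigger of mitotic entry, lowest at -1.09. Of 28 further kinetochore and centromere genes, 10 were lower and 10 higher (35.7% each, close to the shares of all genes, median -0.01), from *CENPX* at -0.68 to *ZW10*, a checkpoint protein, at 0.46. The 17 subunits and cofactors of the anaphase-promoting complex were lower in 6 and higher in 6 (35.3% each, again close to all genes), from *ANAPC15* at -0.91 to *ANAPC10* at 0.55, and of 21 other mitotic kinases and their regulators 9 were lower and 10 higher (42.9% and 47.6%). Cohesin and its regulators were lower in 3 and higher in 7 of 15 genes, centrosome genes lower in 4 and higher in 9 of 23, and condensin II lower in 2 and higher in 1 of 3. Among kinesins that carry cargo in interphase, 3 were lower and 10 higher of 18 tested, with a median of 0.26, and *KIF21B* highest at 0.90, while all 11 mitotic kinesins were lower. Differences between lists were not tested.

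Genes for the complexes that bind CHR, CCAAT and E2F elements were listed with other transcription factors of the cell cycle. Of 24 such genes, 9 were lower (37.5%, against 34.4% of all genes tested) and 6 higher (25%, against 38.1%). *MYB* was lowest, at 10.6, 9.39 and 9.40 FPKM with PBS and 2.52, 2.77 and 2.60 with PP (-1.57 ± 0.06, adjusted p = 9.71e-09 from limma). *MYBL2*, which encodes the B-MYB subunit of MYB-MuvB, fell by 0.26. Of the MuvB subunit genes, *LIN37* was highest, at 31.2, 27.5 and 28.5 with PBS and 57.0, 59.7 and 56.7 with PP (0.97 ± 0.05, adjusted p = 5.31e-08). *LIN9* rose by 0.27 (adjusted p = 0.0153 from limma), though its groups overlapped. Singled out after their values were seen, *LIN54* of the same core rose by 0.33, while *LIN52* fell by 0.71 and *RBBP4* by 0.26. The E2F partner genes *TFDP1* and *TFDP2* fell by 0.59 and 0.64, and of the NF-Y subunit genes *NFYA* fell by 0.38, *NFYC* rose by 0.41 and *NFYB* was at 0.10 (adjusted p = 0.0653 from limma). Of the pocket proteins, *RBL1*, which encodes p107, a repressor subunit of DREAM, rose by 0.60, *RBL2* was at -0.11 (adjusted p = 0.0626), and *RB1* was low at 3.31 to 3.62 FPKM in all 6 libraries and at 0.03 (adjusted p = 0.675). *E2F1* was at -0.02 (adjusted p = 0.681). The CDK inhibitor gene *CDKN1A*, which encodes p21, fell by 0.18.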

How the data were processed

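RNA was measured in 6 NCI-H660 libraries, 3 with PBS and 3 with PP. The authors deposited FPKM for 17177 gene symbols. The submitters' processing notes name fastp, HISAT2, HTSeq and GRCh38, whereas the methods name Bowtie with hg19, RSEM for expression levels, Cufflinks for FPKM and HTSeq for counts, and the notes do not name Cufflinks. The labels and figure legends give 3 samples per treatment and the methods duplicates. All 6 were used.

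Whole counts were recovered from the steps of the FPKM values for all 17177 genes (tolerance 0.01 of a count). They give the depth, 29064253 to 32481171 counts per library, and an alternative fit. limma 3.58.1 (R 4.3.3; lmFit, eBayes with an intensity trend) was fitted to log2(FPKM + 1) of the 11726 genes that averaged 1 FPKM or more, with treatment as the only term, and p-values were adjusted by Benjamini and Hochberg's method over all of them. The pseudocount of 1 understates changes of low genes. The steps were tested on simulated data. Python 3.11.15 with numpy 2.4.6, pandas 2.3.3, scipy 1.17.1 and matplotlib 3.10.9 was used for the rest.

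The members and lists were chosen with earlier results of these data known. Genes named with full values were those lowest and highest in each role list, those that rose, those past the cutoff and 9 well-known regulators. From the other lists, genes lowest or highest among the called and 7 regulators were chosen for naming. Many of these are given by log2 fold change alone, and not every list has a named gene. Further genes were singled out after their values were seen. Alternative fits changed the pseudocount, scaling, filter, variance model, values modelled or libraries included, or added a replicate block. *KLK3*, *KLK2* and *ACPP* of the luminal markers were not analysed here, and some other marker genes are not reported here and were left out of the sums.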

Additional observations from a re-analysis of the deposited data

How the results depend on the processing

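Under the 16 alternatives run, 937 of 960 log2 fold changes of the 60 genes kept their direction and side of the threshold. The sign changed in 11 values of 4 genes near 0 that did not pass the test: *CENPM* (-0.0159 with median-ratio and -0.0496 with upper-quartile scaling, -0.0628 to 0.0843 with a library left out), *SMC4* (-0.00282 and -0.0396 with these scalings, -0.0194 to 0.0526 with a library left out), *CENPN* (-0.0559 to 0.0361) and *SPC25* (-0.0606 to 0.0304). No called gene changed sign, 8 calls were lost and 4 gained, in 6 genes (*CENPA*, *NUF2*, *NDC80*, *CDK1*, *MAD2L1* and *PLK4*). The count of genes lower with PP ran from 48 to 52 and of those past the cutoff was 1 throughout. Genes higher with PP numbered 1, or 2 without PP replicate 1, with a range of 1 to 2 when each library was left out. The median log2 fold change, -0.32, was -0.35 with median-ratio scaling, -0.38 with upper-quartile scaling and -0.35 with limma-voom on recovered counts, and -0.36 to -0.32 with each library left out; the scalings shift all genes, and other causes were not tested. *NUF2* lost its call with no filter (adjusted p = 0.0579 from limma), and *CENPA* with no trend (0.0514) and with limma-voom (0.0976).

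The replicate numbers did not pair the libraries, since deviations of same-numbered libraries correlated at -0.21, -0.01 and -0.13. With the replicate block, 51 genes were lower, 1 was higher, and the median was -0.32. The lowest count of any of the 60 genes in a library was 490 and the largest standard error of a log2 fold change was 0.08. A p that misses the threshold does not show that the 8 genes concerned were unaffected by PP.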

Other observations

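Genes of DNA replication, which act before mitosis, changed in both directions, more often downwards. Of 41 licensing, fork and nucleotide genes, 20 were lower with PP by limma (48.8%, against 34.4% of all genes tested) and 7 higher (17.1%, against 38.1%). Their median log2 fold change was -0.10. *CCNE1*, which encodes cyclin E1, was lowest at -1.17, with 9.24, 11.4 and 11.8 FPKM with PBS and 3.83, 4.54 and 4.28 with PP. *CDC6*, which loads the replicative helicase, was highest at 0.75, with 24.2, 21.0 and 22.1 FPKM with PBS and 39.6, 36.6 and 38.7 with PP. Among 8 CDK inhibitor genes, *CDKN2C*, which encodes p18, was lowest at -1.35 and *CDKN2B*, which encodes p15, highest at 0.73. In each of these 4 genes, named as the extremes of their lists, the PP and PBS libraries did not overlap (background 35.5% with PP below and 39.5% with PP above). Differences between these lists and the mitotic genes were not tested.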
